A study of Homo sapiens with 3 samples.

Results

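The genes described here are the inhibitor of DNA binding genes ID1, ID2 and ID3 and the genes of the E proteins they block, TCF3, TCF4 and TCF12. They are 6 of the 57773 Ensembl gene IDs in a table of read counts from NB4, a human acute promyelocytic leukaemia cell line with the PML-RARA fusion. They were picked by name, with results of these data already known. The study asked what silencing ARID1B, a subunit of the BAF chromatin remodelling complex, does to these cells. Polyadenylated RNA was sequenced in 3 libraries, 2 with short hairpin RNAs (shRNAs) against ARID1B, hairpin 2 in the first and hairpin 3 in the second, and 1 with a non-target control shRNA. All 3 come from the same line in the same medium with serum. The 3 libraries carry different shRNAs, so they come from separately treated cells, and the labels name no repeat of any shRNA. The p-values below reflect the spread between these samples alone. That spread mixes differences between the hairpins with culture and technical differences, which cannot be told apart.

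E proteins are basic helix-loop-helix transcription factors that bind the E-box, a short DNA motif, as dimers with each other or with tissue-specific partners such as the TAL1 and LYL1 factors of blood cells. ID proteins have the helix-loop-helix but lack the basic stretch that touches DNA, so an E protein paired with an ID protein cannot bind. In blood this balance is best known from lymphocytes, where E proteins drive B and T cell development, and from dendritic cells, where ID2 favours the conventional type and TCF4 the plasmacytoid type. ID genes are classic targets of BMP signalling, and ID1 and ID2 are known to be induced by retinoic acid in acute promyelocytic leukaemia cells.

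ARID1B itself had 2209 and 2234 counts under hairpins 2 and 3, against 5268 in the control library, or 43.3% of the control level with hairpin 2 (exact 95% counting interval from 41.2 to 45.5) and 42.2% with hairpin 3 (40.2 to 44.4). Total counts were 59997475 and 62954803 under the hairpins and 61640692 in the control, so that 3 counts, the most a count of 0 allows, correspond to between 0.0477 and 0.05 CPM (counts scaled to library size). Of 11 promyelocyte markers, MPO had between 682719 and 836096 counts and CD33 between 3273 and 3938, while ELANE had at most 10, KIT at most 6 and CD34 had 0 in each library. Of the 9 tested, 3 rose and 1 fell in edgeR: PRTN3, with 14914 and 13672 counts under hairpins 2 and 3 against 3363 in the control (log2 fold change 2.11), ANPEP (0.87) and CEBPA (0.74) rose, and CTSG, with 1672 and 2183 against 6837 (-1.81), fell. The part of these granulocyte genes in the results below was not tested. Over all genes tested in edgeR, 5.49% were called higher and 3.21% lower. The 5 B cell markers summed to 6.77 and 4.65 CPM under hairpins 2 and 3 and 5.65 CPM in the control, with MS4A1 at 0 counts in each library. The 4 plasmacytoid dendritic cell markers summed to 3.59 and 5.95 CPM against 3.33 CPM in the control, nearly all from IL3RA, and the 4 erythroid markers to 0.499 and 0.176 CPM against 0.242 CPM. The 5 T and NK cell markers summed to 10.2 and 11.6 CPM, against 4.94 CPM in the control, nearly all from CD3D, with CD3E at most at 3 counts. The 7 epithelial, fibroblast and packaging cell markers summed to 19.2 and 24.1 CPM, against 25.6 CPM in the control, mostly EPCAM, with COL1A1, COL1A2 and COL3A1 at 4 counts or fewer in any library. COL6A1 of that list had 30 and 62 counts against 152 and fell (-1.70, edgeR).

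The ID genes and TCF3 have a single promoter entry each in RefSeq, shown here as the 250 bases before the transcript start (GRCh38.p14, a newer build than the hg19 of the counts), 5′ to 3′ on the gene's strand, because the ID genes diverged in level and ID2 and TCF3 moved in opposite directions. Capitals mark each E-box, CANNTG on both strands. The windows are chr20:31605039-31605288 for ID1 on the plus strand, chr2:8681806-8682055 for ID2 on the plus strand, chr1:23559502-23559751 for ID3 on the minus strand and chr19:1652616-1652865 for TCF3 on the minus strand.
ID1: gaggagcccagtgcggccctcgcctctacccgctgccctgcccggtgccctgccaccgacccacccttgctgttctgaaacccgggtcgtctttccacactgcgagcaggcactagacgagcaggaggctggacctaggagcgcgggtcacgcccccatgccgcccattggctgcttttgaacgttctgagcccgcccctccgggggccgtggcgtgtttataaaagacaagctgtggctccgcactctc
ID2: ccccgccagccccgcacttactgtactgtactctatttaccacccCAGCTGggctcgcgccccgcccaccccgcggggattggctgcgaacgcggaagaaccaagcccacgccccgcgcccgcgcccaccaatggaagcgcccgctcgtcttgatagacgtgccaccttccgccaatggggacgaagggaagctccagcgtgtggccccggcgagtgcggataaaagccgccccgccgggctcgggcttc
ID3: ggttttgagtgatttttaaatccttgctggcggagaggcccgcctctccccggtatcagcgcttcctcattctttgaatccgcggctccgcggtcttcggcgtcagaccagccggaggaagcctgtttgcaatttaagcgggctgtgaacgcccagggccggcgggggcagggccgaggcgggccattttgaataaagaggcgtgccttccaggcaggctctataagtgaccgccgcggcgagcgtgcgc
TCF3: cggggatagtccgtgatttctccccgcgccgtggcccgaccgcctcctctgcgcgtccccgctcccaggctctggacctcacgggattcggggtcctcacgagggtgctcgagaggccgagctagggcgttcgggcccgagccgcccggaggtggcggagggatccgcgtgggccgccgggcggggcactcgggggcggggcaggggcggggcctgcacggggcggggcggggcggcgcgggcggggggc

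Among these 4 windows an E-box was found in that of ID2 alone, CAGCTG, which reads the same on both strands, 205 bases before the start. Over all 35116 promoter entries, 61.8% held a CANNTG match in a window of this length and 14% held CAGCTG. The CCAAT box, CCAAT on both strands, occurred at 172, 122 and 78 bases before the ID2 start and at 84 bases before the ID1 start, and was not found in the ID3 and TCF3 windows; 32% of all entries hold it. TATAAA on both strands, a TATA box form found in 10.7% of entries, stood at 33 and 31 bases before the ID1 start, as overlapping matches on opposite strands, and in none of the other 3 windows. GGCGCC, the GC-rich element that BMP-activated SMADs bind, was in none of the 4 and in 16.4% of entries. Sequence further upstream was not searched, so these windows cannot show whether such elements lie there. The windows were chosen with the values of these genes known, and a link between the motifs and those values was not tested. The windows were 66.0% G or C for ID1, 69.2% for ID2, 62.0% for ID3 and 79.6% for TCF3, against a median of 58.0% over all entries. TCF4 has 10 promoter entries and TCF12 has 5, of which 5 and 2 held an E-box, and gene counts do not show which start is used.

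The members were proposed with the comparison of ARID1B shRNA with control shRNA already known, so their values in it are given as a description, without a test. ID2 was the member with the largest difference. It had 512 and 371 counts under hairpins 2 and 3, against 126 in the control library, which is 8.51 and 5.95 CPM under the hairpins against 2.03 CPM in the control. Both hairpin libraries lay above the control, hairpin 2 higher than hairpin 3. The mean was 7.23 ± 1.81 CPM under ARID1B shRNA (SD, n = 2) against 2.03 CPM in the lone control. ID2 was thus 4.20 times as high as the control with hairpin 2 (exact 95% counting interval from 3.45 to 5.14) and 2.93 times as high with hairpin 3 (2.39 to 3.62). In bulk RNA, a changed share of cells that express a gene and a changed amount of its RNA per cell cannot be told apart. Its fitted log2 fold change was 1.83 ± 0.267 (SE), and 1.76% of the 20382 genes tested had a larger one.

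ID1 and ID3 were close to the detection floor in every library. ID1 had 12 and 16 counts under hairpins 2 and 3, against 12 in the control, or 0.1995 and 0.257 CPM against 0.193 CPM. Its ratio to the control was 1.03 under hairpin 2 (0.424 to 2.51) and 1.33 under hairpin 3 (0.590 to 3.08), so no difference was detectable at this depth. ID3 had 7 and 4 counts under the hairpins, against 13 in the control, or 0.116 and 0.0642 CPM against 0.209 CPM. Its ratio was 0.556 under hairpin 2 (0.188 to 1.499) and 0.306 under hairpin 3 (0.0728 to 0.992), so both hairpin values lay below the control, and the interval under hairpin 2 contains a ratio of 1. ID4, the remaining gene of the family and not a member here, had 0 and 0 counts under the hairpins and 1 in the control.

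Both abundant E protein genes lay below the control in each hairpin library, TCF12 by less than TCF3. TCF3, which encodes E12 and E47 by alternative splicing, had 5262 and 5111 counts under hairpins 2 and 3, against 7322 in the control, or 87.5 and 82.0 CPM against 118 CPM. It averaged 84.7 ± 3.90 CPM under ARID1B shRNA (SD, n = 2), or 74.2% of the control with hairpin 2 (exact 95% counting interval from 71.6 to 76.9) and 69.5% with hairpin 3 (67.1 to 72.1). Its fitted log2 fold change was -0.48 ± 0.127 (SE), with 12.5% of the tested genes below it. Both hairpin libraries were under the control by more than they differed from each other.

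TCF12, the gene of the E protein HEB, had 4864 and 4847 counts under the hairpins, against 5887 in the control, or 80.9 and 77.7 CPM against 94.8 CPM. The hairpin mean was 79.3 ± 2.22 CPM (SD, n = 2). It stood at 85.3% of the control under hairpin 2 (82.1 to 88.6) and 82.0% under hairpin 3 (78.9 to 85.2), a smaller difference than that of TCF3 in each hairpin library, with intervals that cover counting error only. The fitted log2 fold change was -0.26 ± 0.126 (SE), with 23.9% of the tested genes below it.

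TCF4, the gene of E2-2, the E protein of plasmacytoid dendritic cells, was scarce. It had 73 and 49 counts under hairpins 2 and 3, against 57 in the control, or 1.21 and 0.786 CPM against 0.918 CPM. The control lay between the hairpin libraries, with a ratio of 1.32 under hairpin 2 (0.922 to 1.90) and 0.856 under hairpin 3 (0.572 to 1.28).

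**Figure D1:**
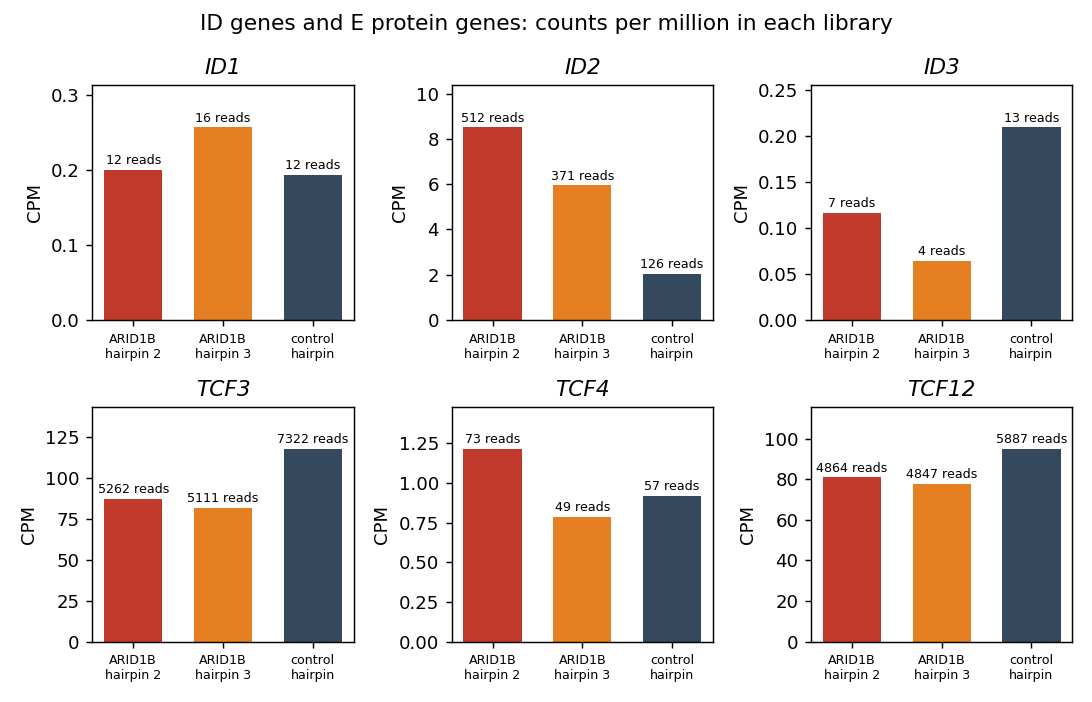
CPM, counts scaled to library size (vertical axis, from 0, a different scale for each gene) of the 6 genes in the ARID1B hairpin 2, ARID1B hairpin 3 and control libraries, 1 bar per library, with the read count above each bar. ID2 stands at 8.51 and 5.95 CPM under the hairpins against 2.03 CPM in the control, TCF3 and TCF12 are lower under both hairpins, and the bars of ID1, ID3 and TCF4 rest on at most 73 reads.

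All 6 genes passed the filter on low counts, ID1 and ID3 with at most 16 counts in any library. At the study-wide threshold (edgeR quasi-likelihood test, Benjamini-Hochberg adjusted p under 0.05) 8.7% of the tested genes were called, 5.49% as higher and 3.21% as lower. Of the members ID2 was called higher, TCF3 lower, and 4, TCF12 among them, were not called. Since the members were chosen with this contrast known, nothing is read from these counts. The call of TCF3 was lost in DESeq2, where genes under 1 CPM on average were dropped and without a filter, and that of ID2 without a filter, where no gene was called. The members' median log2 fold change was -0.07, against -0.01 over all genes tested.

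**Figure D2:**
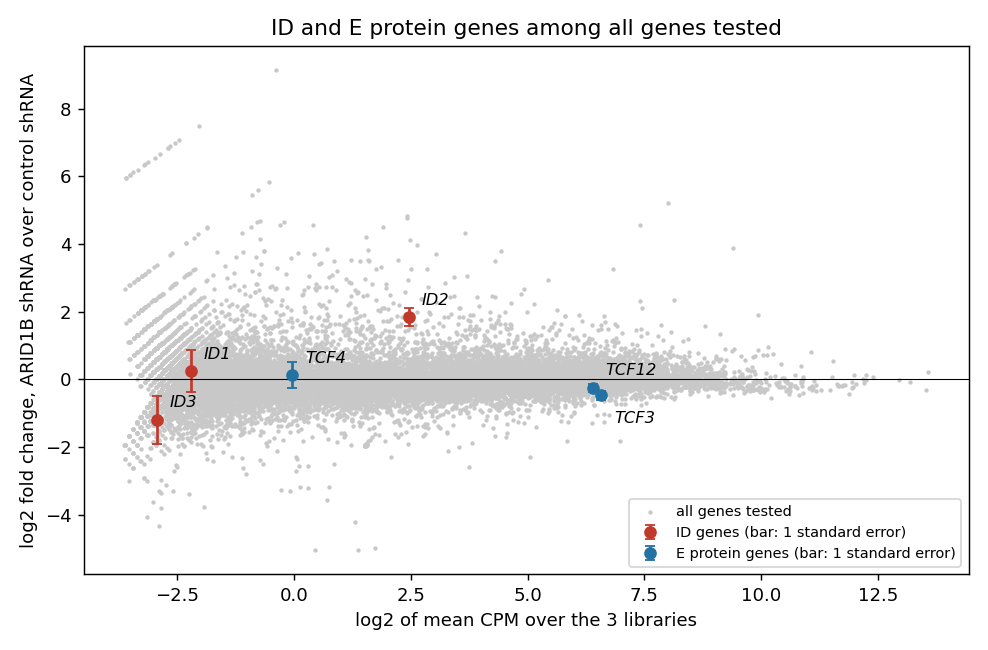
Fitted log2 fold change of ARID1B shRNA over control shRNA (vertical axis) against the log2 of the mean CPM of the 3 libraries (horizontal axis) for all 20382 genes tested (grey), with ID genes in red, E protein genes in blue and bars of 1 standard error. ID2 lies at 1.83, above most genes of its abundance, TCF3 and TCF12 lie slightly under 0 at -0.48 and -0.26, and ID1 and ID3 sit at the scarce end with wide bars.

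The hairpins can also be set against each other, a contrast that was not the basis of the choice of members but has 1 library a side and therefore no test. ID2 was 1.43 times as high under hairpin 2 as under hairpin 3 (exact 95% counting interval 1.25 to 1.64). The ratio was 1.07 for TCF3 (1.03 to 1.11), 1.04 for TCF12 (0.9995 to 1.08) and 1.54 for TCF4 (1.06 to 2.27). For ID1 it was 0.777 (0.336 to 1.75) and for ID3 1.81 (0.461 to 8.45). ARID1B itself had a ratio of 1.03 (0.966 to 1.09). Between these hairpin libraries, with a like ARID1B level, ID2, TCF4 and, by a smaller ratio, TCF3 differed by more than counting error. Counting error leaves out variation between libraries, for which the fit's common coefficient of variation was 0.11. The share of all genes with such a difference was not computed, so it is not read as particular to these members.

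Levels of different genes were compared per length, as TPM, transcript abundance scaled to a fixed library total, over the exon length of each gene. TCF3 stood at 40.4 and 37.1 TPM under hairpins 2 and 3 against 54.5 TPM in the control, and TCF12 at 24.1 and 22.6 TPM against 28.2 TPM. ID2 followed at 10.8 and 7.42 TPM against 2.59 TPM. The remaining members were under 1 TPM everywhere, ID1 at 0.455 and 0.572 against 0.440 TPM, ID3 at 0.182 and 0.0981 against 0.327 TPM and TCF4 at 0.123 and 0.0776 against 0.0927 TPM. Between neighbours in this order, ID3 and TCF4 overlapped under the hairpins, while the others were further apart than their spread over the hairpins. With the median transcript length in place of the exon length, TCF12 came before TCF3 (80.2 against 59.7 TPM under ARID1B shRNA) and TCF4 before ID1 (0.959 against 0.183 TPM), so those orders are not settled by these counts. ID2 lay between the abundant E protein genes and the rest under both lengths.

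Summed over the family of 4, ID transcripts came to 11.5 and 8.09 TPM under hairpins 2 and 3, against 3.37 TPM in the control. ID2 made up 94.5% and 91.7% of that sum under the hairpins and 76.7% in the control. The 3 E protein genes summed to 64.6 and 59.8 TPM under the hairpins, against 82.8 TPM in the control. There were thus 5.63 and 7.39 E protein transcripts for each ID transcript under the hairpins, against 24.5 in the control, and with median transcript lengths 18.2 and 24.4 against 81.9. E protein transcripts outnumbered ID transcripts in each library by either length, by less with ARID1B silenced. Protein and dimers were not measured.

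**Figure D3:**
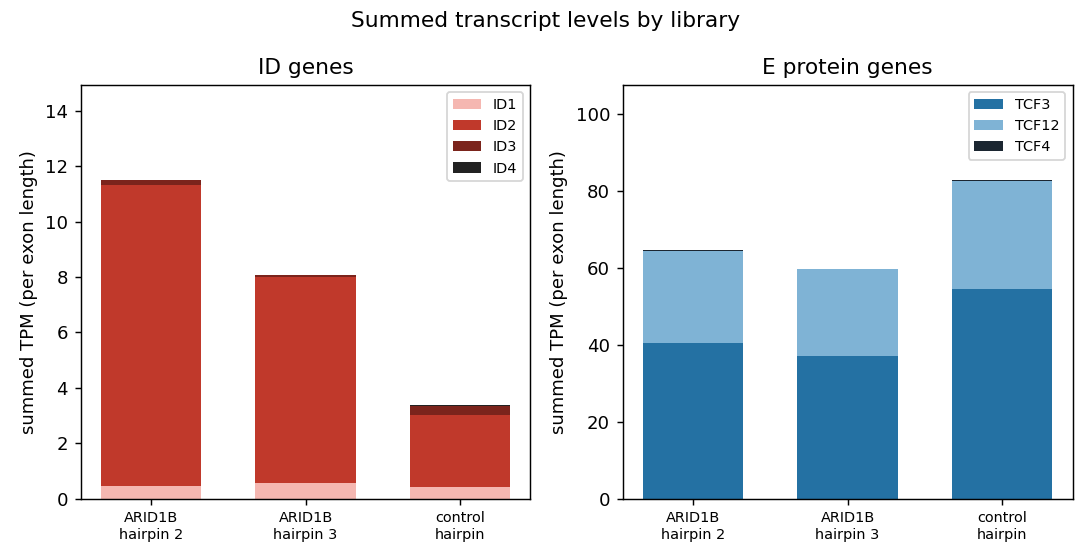
Summed TPM (vertical axes, from 0, on different scales) of the 4 ID genes (left) and the 3 E protein genes (right) in the ARID1B hairpin 2, ARID1B hairpin 3 and control libraries, stacked by gene. The ID sum is 11.5 and 8.09 TPM under the hairpins against 3.37 TPM in the control and is mostly ID2, while the E protein sum is 64.6 and 59.8 TPM against 82.8 TPM.

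Genes most like ID2 were those with the smallest distance in the 2 log2 ratios of hairpin over control, among 11283 named genes that averaged 5 CPM or more. With 3 libraries this likeness is a description. The nearest to ID2, at 2.05 and 1.54, were the heparan sulphate proteoglycan SDC2 (2.05 and 1.59), the adaptor PRAM1 (2.13 and 1.53), known as a gene that PML-RARA represses and retinoic acid induces, and the coagulation factor gene F12 (2.01 and 1.62). In counts, SDC2 had 1067 and 801 under hairpins 2 and 3 against 264 in the control. PRAM1 had 9574 and 6545 against 2258, and F12 had 886 and 697 against 225. A shared cause was not tested. The nearest to TCF3, at -0.43 and -0.52, were the ribosome biogenesis factor UTP20 (-0.42 and -0.52), the splicing factor SRRM2 (-0.42 and -0.51) and the kinase MAP3K21 (-0.44 and -0.51).

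The genes around the ID and E proteins were read from 8 lists, ordered here from dimer partners to regulators, which held 107 tested genes. Their values are given beside the shares of all tested genes called higher, 5.49%, and lower, 3.21%. The lists were drawn up with earlier results of these data known, so their counts and medians are a description and nothing is read from them. Of 29 tissue-specific partners 25 were under 1 CPM and 12 had no count, and 8 passed the filter on low counts, of which 3 rose and 1 fell, with a median log2 fold change of 0.58 against -0.01 over all genes. LYL1, the abundant blood partner of E proteins here, had 9640 and 9210 counts under hairpins 2 and 3 against 6625 in the control and rose by 0.53 ± 0.134 (log2, SE; edgeR adjusted p = 0.0202). OLIG1, a factor known from oligodendrocytes, had 4848 and 3274 counts against 1009 and rose by 2.03 ± 0.209, and its neighbour OLIG2 had 2805 and 2236 against 1153 and rose by 1.15 ± 0.167. MESP1, a mesoderm factor, had 8 and 16 counts against 46 and fell (-1.91 ± 0.493, edgeR adjusted p = 0.0233), and DESeq2 gave it no adjusted p. ASCL2 and NHLH1, the most abundant of the genes not called, had log2 fold changes of 0.09 ± 0.216 and 0.87 ± 0.405. TAL1, the closest relative of LYL1 and picked here after its values were seen, had only 53 and 42 counts against 31.

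In erythroid and stem cells, E proteins sit with TAL1 or LYL1 in complexes that LMO2 and LDB1 bridge to GATA factors. Of 18 such partners, corepressors and coactivators 16 were tested, 3 rose and 0 fell, with a median of 0.02. GATA1 had 942 and 510 counts under hairpins 2 and 3 against 57 in the control (3.70 ± 0.374), GATA2 had 3843 and 3681 against 1464 (1.38 ± 0.142) and LMO2 had 5329 and 5751 against 3662 (0.62 ± 0.131, edgeR adjusted p = 0.0065). The call of GATA1 was lost with robust empirical Bayes. The abundant corepressor SIN3A (-0.06 ± 0.138) and the acetyltransferase KAT2A (-0.30 ± 0.135) were not called. LDB1, chosen after its values were seen, had 0.34 ± 0.148 and was not called either.

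**Figure D4:**
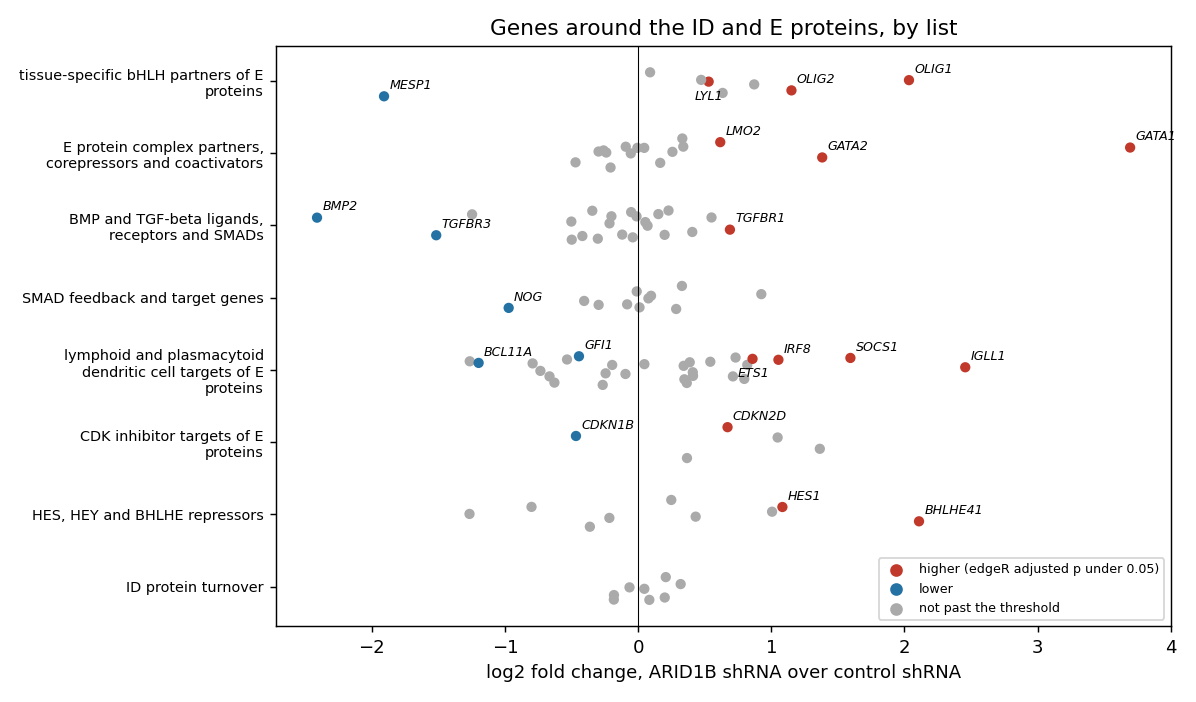
Fitted log2 fold change of ARID1B shRNA over control shRNA (horizontal axis) of each tested gene in the 8 lists (rows, with vertical jitter), red for genes called higher, blue for lower and grey for those not past the threshold. GATA1 lies furthest right at 3.70 and BMP2 furthest left at -2.41, and none of the 8 genes of ID protein turnover was called.

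BMP signalling is the classic inducer of ID genes. Of 30 BMP and TGF-beta ligands, receptors and SMADs 22 were tested, 1 rose and 2 fell, with a median of -0.09. The ligand BMP2 had 6 and 9 counts under hairpins 2 and 3 against 41 in the control (-2.41 ± 0.541), and the co-receptor TGFBR3 had 17 and 18 against 51 (-1.52 ± 0.436, edgeR adjusted p = 0.0401). Both calls rest on few counts and had no test where genes under 1 CPM on average were dropped. In DESeq2 the call of TGFBR3 was lost, and BMP2 was given no adjusted p. The receptor TGFBR1 had 7059 and 6884 counts against 4386 and rose by 0.69 ± 0.132, while TGFB1 (0.20 ± 0.137) and SMAD2 (-0.12 ± 0.127) were not called. The BMP-activated SMADs SMAD1, SMAD5 and SMAD9 were picked after their values were seen. SMAD1 had 0 counts in each library. SMAD5 had 3689 and 3355 counts under hairpins 2 and 3 against 2697 in the control (0.41 ± 0.138). SMAD9 had 59 and 57 against 56 (0.07 ± 0.361), and neither of these was called. Of 13 SMAD feedback and target genes 11 were tested and 1 fell, NOG, which encodes the BMP antagonist noggin, with 1850 and 2798 counts against 4609 (-0.97 ± 0.170, edgeR adjusted p = 0.0015). That call was lost with robust empirical Bayes. The repressors SKI (-0.30 ± 0.128) and TGIF1 (0.01 ± 0.140) were not called.

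Of a list of 40 genes tied to E proteins in lymphocytes and plasmacytoid dendritic cells, 23 were under 1 CPM and 28 were tested, of which 4 rose and 2 fell, with a median of 0.34. IGLL1, a surrogate light chain of B cell precursors, had 217 and 250 counts under hairpins 2 and 3 against 43 in the control (2.46 ± 0.318). SOCS1, a cytokine signalling inhibitor, had 99 and 74 against 29 (1.59 ± 0.414, edgeR adjusted p = 0.0237), a call lost in DESeq2 and where genes under 1 CPM on average were dropped. IRF8, a monocyte and dendritic cell factor, had 837 and 617 against 356 (1.05 ± 0.216). BCL11A, a zinc finger factor of B and dendritic cells, had 988 and 1235 against 2582 and fell by 1.20 on the log2 scale, with a standard error of 0.146. The remaining calls were ETS1 (0.86 ± 0.139) and GFI1 (-0.44 ± 0.128, edgeR adjusted p = 0.0401), which complete the count. In DESeq2 and where genes under 1 CPM on average were dropped, BCL11A was the only lower call of the list, so that of GFI1 was lost. The abundant IKZF1 (0.35 ± 0.140) and CD4 (0.39 ± 0.182) were not called. The B cell markers PAX5 and EBF1, which are on this list too, had at most 33 and 55 counts in any library. The T cell marker CD3D had 595 and 704 counts under hairpins 2 and 3 against 292 in the control and rose by 1.17 ± 0.197, with CD3E at 3 counts or fewer, and its part in these values was not tested.

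E proteins can induce CDK inhibitors such as CDKN1A, and ID proteins counter this. Of 7 CDK inhibitor genes 5 were tested, 1 rose and 1 fell. CDKN2D (p19) had 2310 and 1955 counts under hairpins 2 and 3 against 1360 in the control (0.67 ± 0.155, edgeR adjusted p = 0.0116), and CDKN1B (p27) had 1676 and 1794 against 2431 (-0.47 ± 0.134, edgeR adjusted p = 0.0392). The call of CDKN1B was lost in DESeq2 and both were lost where genes under 1 CPM on average were dropped. CDKN2C (0.37 ± 0.150) and CDKN1A (1.05 ± 0.347) were not called. Among 12 HES, HEY and BHLHE genes, repressors with their own helix-loop-helix, 9 were tested and 2 rose. HES1, a Notch target, had 647 and 810 counts against 348 (1.08 ± 0.194), and BHLHE41 had 219 and 190 against 48 (2.11 ± 0.322), while HES6 (-0.22 ± 0.141) and BHLHE40 (0.25 ± 0.160) were not called. Of 8 genes that control the stability of ID proteins none was called (edgeR), among them the deubiquitinase USP1 (0.08 ± 0.139) and the ligase HUWE1 (-0.06 ± 0.145).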

How the data were processed

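The authors deposited whole-number read counts per Ensembl gene ID, not normalized. STAR, featureCounts and Cufflinks and the build hg19 are named per the submitters' processing notes, while versions, annotation and strand use are not given in the sources. Symbols and exon lengths came from GENCODE 29, which named 52338 of the 57773 IDs, and promoter sequences from RefSeq. In the exon annotation, ID2 shares 1.72% of its exon length with ID2-AS1, which had 2 counts in all, and the other members at most 0.701%.

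CPM were computed with TMM factors of 1.0024, 0.9903 and 1.0074 for hairpin 2, hairpin 3 and control. Genes passing filterByExpr (minimum count 10) were fitted in edgeR 4.0.16 (R 4.3.3) with the two-sided quasi-likelihood test, legacy = FALSE. Benjamini-Hochberg adjustment ran over 20382 genes, with a threshold of 0.05. The code was checked on data simulated from this fit, with each gene's dispersion the same in all 3 libraries. Such data cannot show whether the lone control varies like the hairpin libraries. Since 2 libraries were set against 1, only 1 residual degree of freedom remained. A gene's own spread is that between hairpins, and the single control is taken to vary alike. The fit moderates that spread toward the other genes of these libraries (14.8 prior degrees of freedom), so p-values rest mostly on the shared estimate. Standard errors were derived from the fold change and the F statistic of the test. Log2 ratios per hairpin used a prior count of 2. DESeq2 1.42.0, other scalings, filters and fits were alternatives.

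Members and lists were chosen with earlier results of these data known. The named list genes were every called gene up to 4 a list, by size of change, and the 2 most abundant not called. Counting intervals (95%) and floors cover counting error only, since reads carry no molecular identifiers. The result of 1 further gene of the lists is not reported here.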

Additional observations from a re-analysis of the deposited data

How the results depend on the processing

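Against 1119 genes higher and 655 lower, dropping genes under 1 CPM on average gave 622 and 338, DESeq2 gave 277 lower, and without a filter on low counts 0 and 0 were called in edgeR, where 3218 genes had an unadjusted p under 0.05 (4226 with the filter). Higher genes made up 63.1% of the calls, 53.8% under upper quartile scaling and 73.7% in DESeq2. Over 8 alternatives the log2 fold change of ID2 ranged from 1.78 to 1.85 and that of TCF3 from -0.53 to -0.46, and each member kept its sign wherever it was fitted (7 alternatives for ID1, ID3 and TCF4, which the filter at 1 CPM removed). TCF12 had -0.31 with upper quartile factors. Leaving out a hairpin library gave a range of 1.55 to 2.08 for ID2, -1.68 to -0.82 for ID3, -0.52 to -0.41 for TCF3, -0.29 to -0.21 for TCF12, 0.06 to 0.41 for ID1 and -0.22 to 0.42 for TCF4, whose sign depends on the library. With median transcript lengths the TPM under ARID1B shRNA were 0.183 for ID1, 6.51 for ID2, 59.7 for TCF3, 0.959 for TCF4 and 80.2 for TCF12, against 0.513, 9.13, 38.7, 0.1001 and 23.3 with exon lengths. Of 19 named calls in the lists, 19 passed with RLE factors, upper quartile factors, library size alone and the legacy fit, 17 with robust empirical Bayes, 14 in DESeq2 (3 lost, 2 with no adjusted p), 13 where genes under 1 CPM on average were dropped (3 lost, 3 not tested) and 0 without a filter. Over the lists 14 genes were higher and 7 lower, 13 and 2 in DESeq2, and 12 and 2 where genes under 1 CPM on average were dropped. The causes were not tested. No paired analysis was possible because there was 1 control library for 2 different hairpins. ID1, ID3 and TCF4 are limited by depth.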
